A study of Mus musculus with 6 samples.

Results

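The tetraspanins are a family of small membrane proteins, and their transcripts were compared here between mouse dorsal root ganglion (DRG) and spinal cord (SC). The members were all probe sets for which the platform annotation named exactly 1 gene, with a symbol of Tspan and a number or the symbol Cd9, Cd37, Cd53, Cd63, Cd81, Cd82, Cd151, Upk1a, Upk1b, Prph2 or Rom1. This rule found 63 of the 34939 probe sets tested and 29 of the 18192 genes. Cd63 is not analysed here. Of the 29 genes, 18 had several probe sets and 11 had 1.

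DRG hold the cell bodies of sensory neurons with their satellite glia and Schwann cells, and SC holds central neurons, oligodendrocytes and astrocytes. Both tissues were lumbar (L1-L6) and came from male C57BL/6J mice aged 3 months, and the labels give no treatment, transgene or mutation. Each of the 6 arrays carried RNA from a pool of 4 mice, with 3 arrays per tissue, and the design text calls the 3 samples of a tissue independent. Whether a DRG pool and an SC pool came from the same mice is not given in the sources used here.

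Tetraspanins cross the membrane several times and gather integrins, immunoglobulin-family proteins and proteases into membrane patches that take part in adhesion, cell fusion, trafficking and the release of vesicles. A subgroup called TspanC8, with extra cysteines in the large outer loop, escorts the protease ADAM10 out of the endoplasmic reticulum. In the nervous system Cd9, Cd81, Cd151 and Tspan2 have been studied in myelinating glia and astrocytes, Prph2 and Rom1 shape the outer segments of photoreceptors, and Upk1a and Upk1b build the surface of the bladder lining.

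Values are MAS5 signals recovered from the deposited ratios and kept on the deposited array scaling. Differences are DRG minus SC on log2(signal + 16), and folds are on that scale, except those given as "at least", which use log2 signals with nothing added. A gene is represented by its brightest probe set, by mean log2 value over the 6 arrays, and "called" means an adjusted p under 0.05 in limma, with Benjamini-Hochberg adjustment over all 34939 probe sets. As a level under which a signal is not read as expression, the 95th percentile of the signals of 63 probe sets of 46 genes not expected in either tissue was taken on each array. It lay between 128.2 and 177. Arrays of a tissue correlated at 0.969 to 0.974 and arrays of different tissues at 0.884 to 0.89.

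Tetraspanin transcripts were split between the tissues. Of the 29 genes, 11 were called higher in DRG, 5 were called higher in SC and 13 were not called, and Cd9, Cd151 and Tspan17 differed most. Over all genes, 42.3% were called, 32.3% as higher in DRG and 10% as higher in SC. With a log2 difference of at least 1, 6 tetraspanins were higher in DRG against 11.6% of all genes, and 3 were higher in SC against 4.8%. The arrays of the tissues did not overlap for 21 of the 29 genes, against 51.7% of all genes. The median difference was 0.13 over the tetraspanins and 0.18 over all genes. By probe set, 21 were called higher in DRG, 13 were called higher in SC and 29 were not called, against 38% of all probe sets called. In bulk tissue, fewer cells of a type and less RNA per cell cannot be told apart.

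The balance of directions depended on the array scaling. The authors' array factors raise DRG over SC by 0.37 on the log2 scale against signals before that scaling. Quantile normalization moved genes by unequal amounts, and the part of the factors in its counts was not tested. With quantile normalization, 9 tetraspanin genes were called towards each tissue, against 21.1% and 16.5% of all genes, and the median over the members was −0.04 against 0.04 over all genes. Before the array scaling the counts were 10 and 11, against 19.6% and 20.3% of all genes, with medians of −0.24 and −0.10. Signals before this scaling already had nearly equal array means, taken without the most extreme values, of 247.1 to 247.3. Their array medians were 82.6 to 87.5 in DRG and 108.3 to 109.9 in SC. The authors' factors brought these medians to 95.8 to 96.1. Modest differences towards DRG shrank with quantile normalization. Tspan13 (0.60) and Tspan5 (0.59) were called on the deposited scaling but not with quantile normalization, which also took Cd82 from 0.75 to 0.23. Tspan4 (0.93 to 0.70) and Tspan14 (0.89 to 0.58) stayed called. Modest differences towards SC grew instead, for Tspan2 from −0.60 to −1.17 and for Tspan9 from −0.67 to −0.95.

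**Figure D1:**
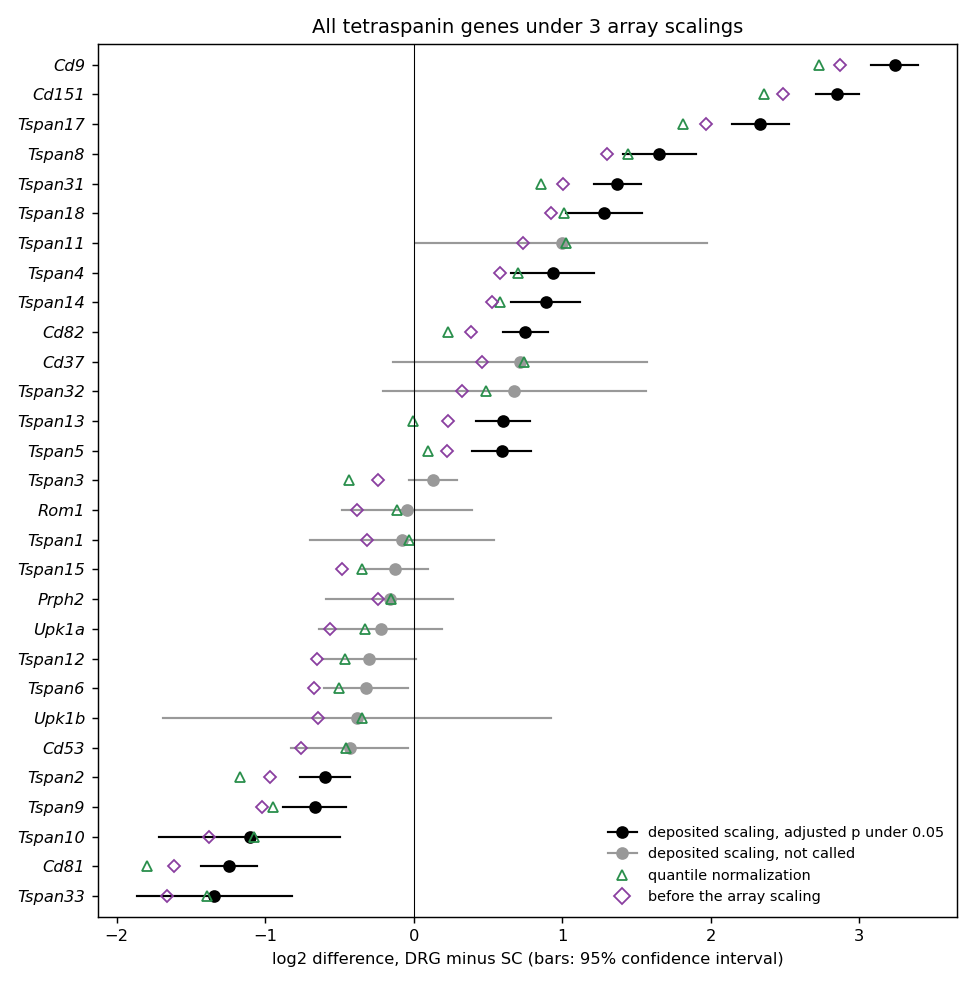
Log2 difference (DRG minus SC) of the 29 tetraspanin genes, 1 gene a line, with filled circles and 95% confidence intervals for the deposited scaling (black where called, grey where not), open triangles for quantile normalization and open diamonds for signals before the array scaling. Cd9 (3.24), Cd151 (2.85) and Tspan17 (2.33) stay far to the right under all 3 scalings, Cd81 (−1.24) and Tspan33 (−1.34) stay to the left, and Tspan13 and Tspan3 lie on both sides of 0.

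The 200 bases before the annotated start are printed for the 4 genes with the greatest differences towards DRG and the 2 with the greatest towards SC, so that the sequences can be set beside the values that follow. They come from RefSeq on GRCm38.p6 and were picked after the values were seen. Each runs 5′ to 3′ on the strand of the gene, and capitals mark the GC box GGGCGG and the CCAAT box. Cd9 lies at chr6:125494761-125494960 on the minus strand, Cd151 at chr7:141467162-141467361 on the plus strand and Tspan17 at chr13:54789205-54789404 on the plus strand. Tspan8 lies at chr10:115817084-115817283, Cd81 at chr7:143052550-143052749 and Tspan33 at chr6:29694014-29694213, all 3 on the plus strand.
Cd9: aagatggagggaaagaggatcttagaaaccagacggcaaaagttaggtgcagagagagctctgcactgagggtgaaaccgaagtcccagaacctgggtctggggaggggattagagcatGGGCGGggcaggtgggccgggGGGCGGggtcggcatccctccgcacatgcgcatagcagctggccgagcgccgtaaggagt
Cd151: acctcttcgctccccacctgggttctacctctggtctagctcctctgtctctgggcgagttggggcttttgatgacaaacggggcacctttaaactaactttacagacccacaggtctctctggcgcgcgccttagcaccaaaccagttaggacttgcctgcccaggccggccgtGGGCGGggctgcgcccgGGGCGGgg
Tspan17: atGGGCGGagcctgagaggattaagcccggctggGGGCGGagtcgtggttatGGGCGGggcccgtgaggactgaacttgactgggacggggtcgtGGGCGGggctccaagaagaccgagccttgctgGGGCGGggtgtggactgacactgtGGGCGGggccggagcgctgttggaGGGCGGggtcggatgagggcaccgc
Tspan8: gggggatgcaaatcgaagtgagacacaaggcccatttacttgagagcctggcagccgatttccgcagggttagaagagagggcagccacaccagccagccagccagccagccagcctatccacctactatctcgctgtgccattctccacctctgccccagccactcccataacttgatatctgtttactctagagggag
Cd81: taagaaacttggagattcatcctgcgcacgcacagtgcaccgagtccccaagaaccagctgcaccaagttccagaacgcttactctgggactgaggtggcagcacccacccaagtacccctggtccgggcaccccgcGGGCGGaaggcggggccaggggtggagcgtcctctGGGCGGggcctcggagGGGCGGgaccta
Tspan33: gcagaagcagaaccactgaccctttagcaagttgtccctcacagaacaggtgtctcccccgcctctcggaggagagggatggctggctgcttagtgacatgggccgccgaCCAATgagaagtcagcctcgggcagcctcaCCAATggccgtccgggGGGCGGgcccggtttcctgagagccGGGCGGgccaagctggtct
The Tspan17 window holds 7 GC boxes on this strand or the other, the Cd81 window 3 and the Cd9 and Cd151 windows 2 each. Tspan33 has 2 GC boxes and 2 CCAAT boxes. The Tspan8 window has no match to any motif searched. For Cd151 the table lists 2 starts, and the window shown is the one farther upstream.

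Among all members, 27 of the 29 genes had a listed start, with 37 windows in all (Tspan18 and Upk1b had no entry). The GC box GGGCGG was present in 16 of the 37 windows and in 31.05% of 32851 windows of all genes, on either strand. The CCAAT box was in 12 and in 29.35% of all windows. The TATA box TATAAA was in none of the 37 and in 9.96% of all, while the core ACAAAG of the Sox factors was in 6 and in 13.33% of all. None of these motifs contains another, and several windows belong to the same gene. The median GC content was 57.5% in the members' windows and 53% in all. A match is a description of letters and not a bound site, and the absence of these letters says nothing of a factor.

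Some members lie beside each other in the RefSeq gene order. Tspan18 and Cd82 are neighbours on chromosome 2 and both were called higher in DRG. Cd151 and Tspan4 on chromosome 7 have 1 protein-coding gene between them and were also both called higher in DRG. The pair Tspan32 and Cd81 on chromosome 7 and the pair Tspan11 and Tspan9 on chromosome 6 are neighbours too, and in each pair the second gene was called higher in SC while the first was not called. With 4 such pairs this is a description.

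The tetraspanins with CD names are the best known, several of them as partners of integrins at the cell surface. Of the 6 measured, Cd9, Cd82 and Cd151 were called higher in DRG, Cd81 was called higher in SC, and Cd37 and Cd53 were not called. The median difference of the 6 was 0.73, 0.49 with quantile normalization and 0.42 before the array scaling, against 0.18, 0.04 and −0.10 over all genes.

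Cd9, which binds integrins and immunoglobulin-family proteins and takes part in membrane fusion, had the greatest difference of any member by its brightest probe set. Its signal was 6915, 6980.0 and 6839 on the DRG arrays and 729.7, 666 and 763 on the SC arrays. The DRG arrays were all far above the SC arrays, with no overlap. The means were 6911 ± 70.7 and 719 ± 49.6 (SD, n = 3 each), a log2 difference of 3.24 (SE 0.0705, adjusted p = 6.86e-09) or 9.43-fold.

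Cd151, the tetraspanin that binds laminin-binding integrins most firmly, gave signals of 3970.2, 4315 and 4152 in DRG and 553, 558 and 570.0 in SC. Every DRG array was above every SC array, and the SC arrays were close together. The log2 difference was 2.85 (SE 0.0641, adjusted p = 7.35e-09). Of its 6 probe sets, 4 were called higher in DRG with differences from 2.11 to 2.85. The other 2 were not called. Of these 2, 1420921_at (0.42) was under the level of genes not expected on all arrays. The set 1427525_at (0.38) was above that level on 3 DRG arrays and 2 SC arrays. Of the 4 called sets, 3 carry the suffix _x_at, given to probe sets that can match other transcripts. The one without it, 1451232_at, differed by 2.46.

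Cd81, which is part of the B cell co-receptor and in the brain has been studied mainly in glia, went the other way. Its signal was 1860.2, 1589 and 1798 in DRG and 4463, 3970.2 and 4038 in SC. All SC arrays were higher and the tissues did not overlap, although the transcript was far above the level of genes not expected on all 6 arrays. The log2 difference was −1.24 (SE 0.083, adjusted p = 2.97e-06), and it was −1.80 with quantile normalization and −1.61 before the array scaling.

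Cd82, known as a suppressor of cell migration, was higher in DRG at 1454 ± 66.7 against 857 ± 13.2 (log2 difference 0.75, adjusted p = 1.75e-05). Its second probe set, 1449611_at, differed by −0.19 and was not called, and with the mean of both probe sets the gene was not called (0.28, adjusted p = 0.238).

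The TspanC8 group held differences in both directions. Tspan17, Tspan14 and Tspan5 were called higher in DRG, Tspan33 and Tspan10 were called higher in SC, and Tspan15 was not called (−0.13, 95% confidence interval −0.36 to 0.10). Tspan15 was called higher in SC with quantile normalization (−0.35, adjusted p = 0.0272) and before the array scaling (−0.48, adjusted p = 0.00553). The median of the 6 was 0.23, against 0.18 over all genes. It turned to −0.13 under both other scalings, against 0.04 and −0.10, with 2 genes called towards DRG and 3 towards SC in each. The shares called over all genes were 32.3% towards DRG and 10% towards SC on the deposited scaling. They were 21.1% and 16.5% with quantile normalization, and 19.6% and 20.3% before the array scaling. Adam10, the protease that these tetraspanins escort, had signals of 1358, 1176 and 1360.1 in DRG and 820.1, 819.6 and 977 in SC. It was called higher in DRG on the deposited scaling (0.57, adjusted p = 0.00106), but differed by 0.05 with quantile normalization (adjusted p = 0.712) and 0.20 before the array scaling (adjusted p = 0.108) and was called under neither. Adam10 is outside the rule for named genes and was picked after its values were seen.

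Tspan17 had signals of 3479, 3057 and 3288 in DRG and 625, 587 and 702 in SC. All DRG arrays were higher and the tissues did not overlap. The log2 difference was 2.33 (SE 0.0851, adjusted p = 7.98e-08), or 5.04-fold, and the second probe set differed by 2.29. Tspan14 was higher in DRG by 0.89 (578 ± 50.4 against 305 ± 26.5, adjusted p = 9.95e-05).

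Tspan33, also known from erythroblasts and B cells, was low on these arrays and passed the level of genes not expected on SC arrays alone. The signal of its brightest probe set was 56.6, 81.9 and 58.7 in DRG and 140.4, 206 and 233 in SC. All SC arrays were higher, and the lowest of them was itself under the level on its array. The log2 difference was −1.34 (SE 0.23, adjusted p = 0.00126). Since DRG was under the level on all 3 arrays, the transcript can only be called at least 1.21-fold higher in SC, as the SC mean of log2 values against that level. All 4 probe sets were called higher in SC, with differences from −1.34 to −2.40, and the probe set with the widest gap, 1455618_x_at, gave at least 1.43-fold.

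Tspan10, known from pigment cells, had signals of 21.5, 24 and 46.9 in DRG and 92.1, 76.8 and 77.7 in SC. All SC arrays were higher, but all 6 values were under the level of genes not expected. The call (−1.11, adjusted p = 0.00931) therefore concerns signals that are not read as expression in either tissue.

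Tspan5 gave opposite calls from its 2 probe sets. The brighter one, 1417179_at, had signals of 1087, 1174 and 1218 in DRG and 831, 689.9 and 777 in SC, a log2 difference of 0.59 (adjusted p = 0.00048). The other, 1431530_a_at, had signals of 284, 269 and 319.6 in DRG and 421, 402 and 426 in SC, a log2 difference of −0.50 (adjusted p = 0.00284). Neither pair of tissues overlapped. With quantile normalization the brighter set differed by 0.09 and was not called, while the other differed by −0.77 and was called, so the direction of Tspan5 is not settled by these arrays.

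**Figure D2:**
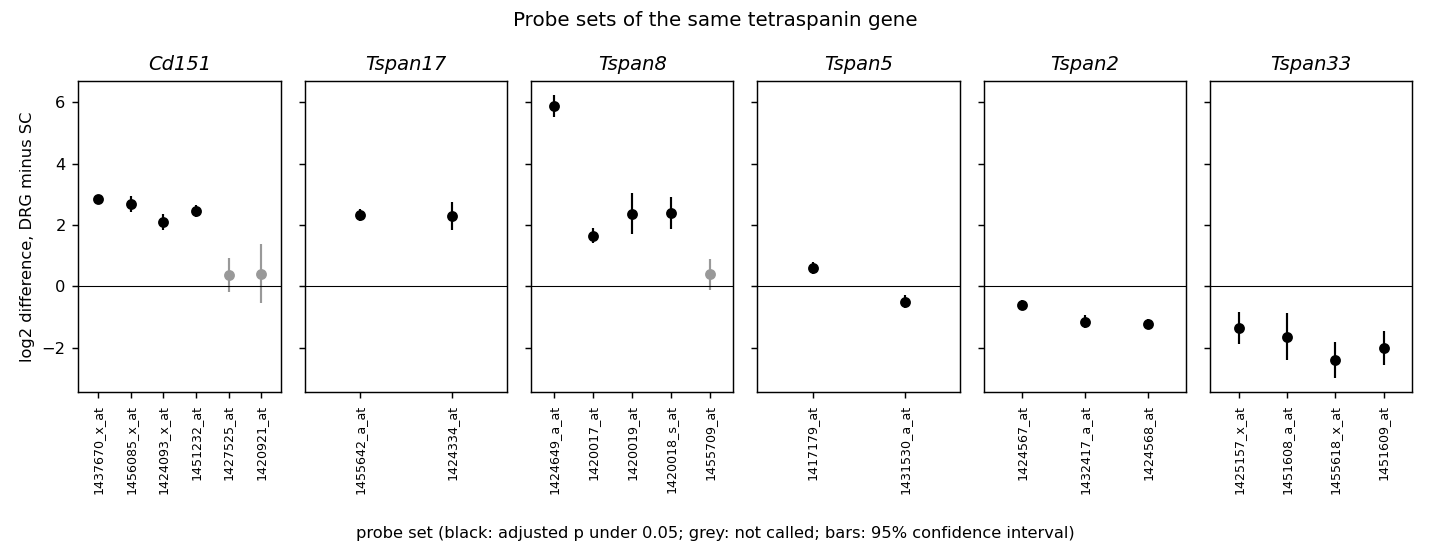
Log2 difference (DRG minus SC) of every probe set of 6 tetraspanin genes, from the brightest to the dimmest in DRG within each panel, with 95% confidence intervals (black where called, grey where not). The probe sets of Tspan17, Tspan2 and Tspan33 lie on the same side of 0. Those of Cd151 and Tspan8 include sets that were not called, and the 2 of Tspan5 lie at 0.59 and −0.50.

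The Tspan genes outside these groups numbered 12, of which 5 were called higher in DRG, 2 were called higher in SC and 5 were not called. The shares over all genes were 32.3% higher in DRG and 10% higher in SC. Their median was 0.36, −0.02 with quantile normalization and −0.01 before the array scaling, against 0.18, 0.04 and −0.10 over all genes.

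Tspan8, known from epithelia and from vesicles released by tumour cells, had probe sets of very different size of effect. The brightest set by mean log2 value, 1420017_at, had signals of 556, 505 and 482 in DRG and 156, 162 and 139 in SC, with no overlap. Its log2 difference was 1.65 (SE 0.109, adjusted p = 2.72e-06). The set 1424649_a_at was brighter in DRG, at 1410.3, 1058 and 1261, and on all 3 SC arrays stood at the deposited floor ratio of 0.01, which makes its SC value of 5.31 an upper bound. Since SC was under the level of genes not expected on all 3 arrays, the gap at this set is at least 7.99-fold. That fold rests on the recovered DRG level, and recovery of sets with 3 arrays at the floor was not tested on simulated data. Of the 5 probe sets, 4 were called higher in DRG, and the remaining one, 1455709_at, was dim in both tissues and not called (0.40, adjusted p = 0.202). Among those 4, 1420018_s_at and 1420019_at were also under the level on all arrays of both tissues, and 1420017_at passed it on only 1 SC array.

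Tspan31, a gene found amplified in sarcomas, had signals of 1701, 1803 and 1882 in DRG and 685, 664 and 703 in SC. All DRG arrays were higher and did not overlap with SC. The log2 difference was 1.37 (SE 0.0688, adjusted p = 5.14e-07), and 0.86 with quantile normalization. A second probe set differed by 1.14 and was called, and another, 1455853_x_at, stayed under the level on all arrays and was not called.

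Tspan18, studied in endothelial cells as a regulator of the calcium channel Orai1, had signals of 634, 518 and 529 in DRG and 235, 199 and 229 in SC. All DRG arrays were higher. The log2 difference was 1.28 (SE 0.113, adjusted p = 1.71e-05), or 2.43-fold. Its other probe sets were under the level of genes not expected on all arrays. Of these, 1437095_at was called higher in DRG (0.90, adjusted p = 0.016) and 1429856_at was not called (−0.07, adjusted p = 0.925). Tspan4, which marks the migrasomes that moving cells leave behind, was higher in DRG by 0.93 (432 ± 34.3 against 219 ± 30.3, adjusted p = 0.000239).

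**Figure D3:**
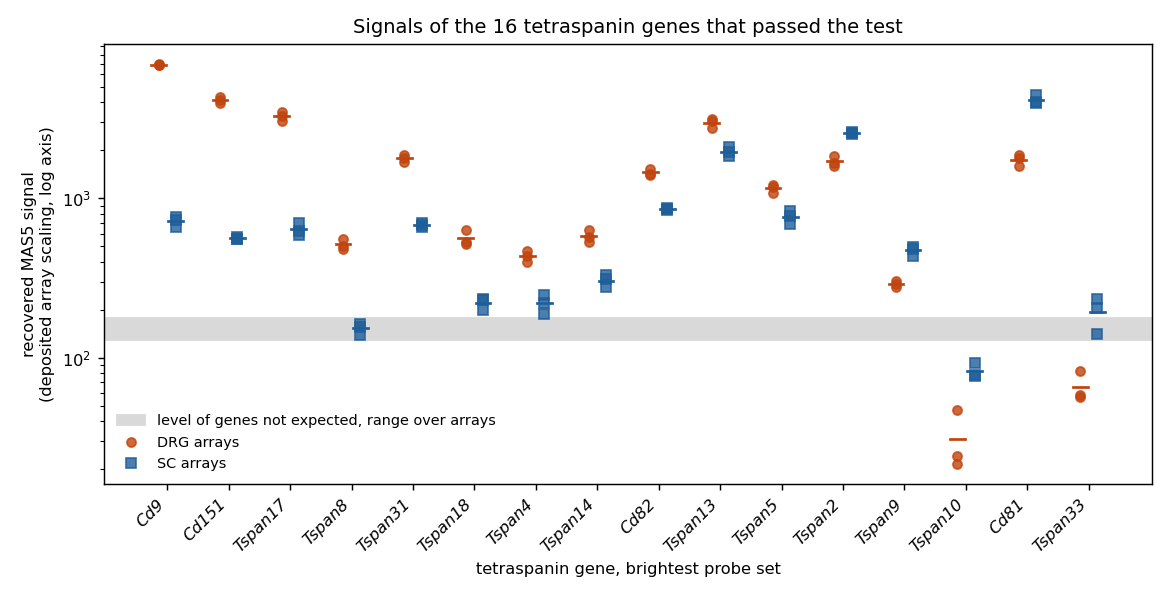
Recovered signal on each array (log axis) of the 16 called tetraspanin genes by their brightest probe set, with circles for DRG arrays, squares for SC arrays and bars at the mean of 3 arrays. The grey band is the range over arrays of the level of genes not expected, 128.2 to 177. Cd9 in DRG lies between 6839 and 6980.0, all arrays of Tspan10 lie under the band, and levels of different genes are not comparable.

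Tspan3 turned with the scaling, and the difference of Tspan13 all but vanished with quantile normalization. Tspan13 had signals of 3061, 2753 and 3149 in DRG and 1947, 1845 and 2106 in SC, and was called higher in DRG (0.60, adjusted p = 0.000263). Its difference was −0.0049 with quantile normalization (adjusted p = 0.968) and 0.23 before the array scaling (adjusted p = 0.0314). The second probe set of Tspan13, 1460239_at, kept its sign, at 0.61, 0.05 with quantile normalization (not called) and 0.24 before the array scaling. Tspan3, abundant in both tissues, had signals of 4129.9, 3936 and 4155 in DRG and 3879, 3501 and 3792 in SC. Its tissues did not overlap, but the gap was small and not called (0.13, adjusted p = 0.193). With quantile normalization it was called higher in SC (−0.44, adjusted p = 0.000177), and before the array scaling as well (−0.24, adjusted p = 0.0149).

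Tspan2 and Tspan9 were called higher in SC. Tspan2, known from the oligodendrocyte lineage, had signals of 1659, 1858 and 1598 in DRG and 2603, 2592 and 2554 in SC by its brightest probe set, a log2 difference of −0.60 (SE 0.0734, adjusted p = 0.000154). The SC arrays were all higher and close together. Its other probe sets differed by −1.23 and −1.15, and Tspan2 was given per array because of that gap, after its values were seen. Tspan9, best known from platelets, was lower in DRG at 291 ± 13.4 against 471 ± 33.3 (−0.67, adjusted p = 0.000367).

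The remaining members of this set were not called on the deposited scaling. Tspan6, a tetraspanin of the endosomal pathway, differed by −0.32 (adjusted p = 0.0756), its second probe set by −0.56 (adjusted p = 0.0238), and it was called higher in SC under both other scalings. Tspan12, which strengthens norrin signalling through Fzd4, differed by −0.30 (adjusted p = 0.126) and was called higher in SC under both other scalings (−0.46 and −0.65). Tspan11 had values of 58.6, 62.2 and 86.2 in DRG and 19.3, 71 and 8.54 in SC, overlapping and under the level, with a difference of 1.00 (adjusted p = 0.106). Tspan1 was under the level on all arrays.

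The photoreceptor and urothelial tetraspanins served as members whose home tissues were not sampled. None of the 4 was called, against 42.3% of all genes, with differences from −0.38 for Upk1b to −0.05 for Rom1. Prph2 stayed between 1.86 and 10.6 on all 6 arrays, and Upk1b was under the level on all 6. Rom1 and Upk1a lay near the level, at means of 142 and 165 in DRG and 147 and 191 in SC. Upk1a was called higher in SC before the array scaling (−0.56, adjusted p = 0.0406).

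Of the 4 tetraspanins of leukocytes, Tspan33 was called and Cd37, Cd53 and Tspan32 were not, against 42.3% of all genes called. Cd37, a marker of B cells, and Cd53, of leukocytes at large, were under the level on all 6 arrays. Cd53 was called higher in SC before the array scaling (−0.76, adjusted p = 0.00746). Tspan32 ranged from 199 to 479 in DRG and from 103 to 308 in SC, with wide overlap (0.68, 95% confidence interval −0.21 to 1.56). Over the family, 7 of 29 genes (Cd37, Cd53, Prph2, Tspan1, Tspan10, Tspan11 and Upk1b) were above the level on none of the 6 arrays, against 39.1% of all genes, and 17 were above it on all 6.

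Genes of known tetraspanin partners were taken from a list of 40, of which 39 were measured. They comprise the integrins, proteases, claudins, immunoglobulin-family proteins and adaptors that tetraspanins bind or regulate. Of the 39, 21 were called higher in DRG, 3 were called higher in SC and 15 were not called, against 32.3% and 10% of all genes. The median was 0.51, set beside 0.18 over all genes. Under quantile normalization the medians were 0.25 and 0.04. There, 17 partners were called towards DRG and 4 towards SC, against 21.1% and 16.5% of all genes. Signals before the array scaling gave medians of 0.17 and −0.10, with 16 and 4 partners called, against 19.6% and 20.3% of all genes.

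Cd44, the hyaluronan receptor, differed most, with signals of 2872, 2861 and 2774 in DRG and 194, 179 and 149 in SC. All DRG arrays were higher by a wide gap (3.91, SE 0.0952, adjusted p = 1.01e-08). Cldn1, a tight junction claudin found with Cd9, had signals of 366, 449.8 and 370.3 in DRG and 19.8, 15.3 and 35.6 in SC, where it was under the level on all arrays. By this probe set, 1 of 4 for the gene, it was at least 2.55-fold higher in DRG (log2 difference 3.41, adjusted p = 2.96e-06). It differed by less, though still called, with the mean of its probe sets (log2 1.21) and without the sets ending in _x_at, _s_at or _a_at (1.25).

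The laminin-binding integrin chain Itga7, a partner class of Cd151, had signals of 1123, 947 and 1075 in DRG and 142, 142 and 148 in SC. All DRG arrays were higher (2.73, adjusted p = 5.51e-08). Other integrin chains of this class, read here after their values were seen, were also called higher in DRG: Itga3 by 1.23, Itga6 by 1.02 and their common chain Itgb1 by 1.73. Itgb4, the partner of Itga6 in hemidesmosomes, differed by 0.07 and was not called (95% confidence interval −0.20 to 0.35).

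Among the immunoglobulin-family partners, the adhesion molecule L1cam differed by 2.41, with signals of 6472, 5476 and 5719 in DRG and 1156, 1042 and 1075 in SC. Igsf3 differed by 1.93 (1048 ± 28.7 against 264 ± 17) and Mcam by 1.82 (1259 ± 164 against 348 ± 67.4), and the tissues overlapped for none of these 3. The other partners of this family, read after their values were seen, did not all go this way. Icam1 (1.46, under the level on all arrays), Cd47 (1.15) and Ptgfrn (1.07) were called higher in DRG. Vcam1 was called higher in SC (−0.99, adjusted p = 0.000477), and Igsf8 was not called (0.20). Cldn11, the claudin of central myelin, was the partner with the greatest difference towards SC, with signals of 235, 294 and 297 in DRG and 2612, 2273 and 2646 in SC (−3.12, adjusted p = 4.93e-08). Cldn11 is also in the list of oligodendrocyte markers. Hbegf, the remaining partner called higher in SC, differed by −0.99 (adjusted p = 0.000723) and was read after its values were seen.

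**Figure D4:**
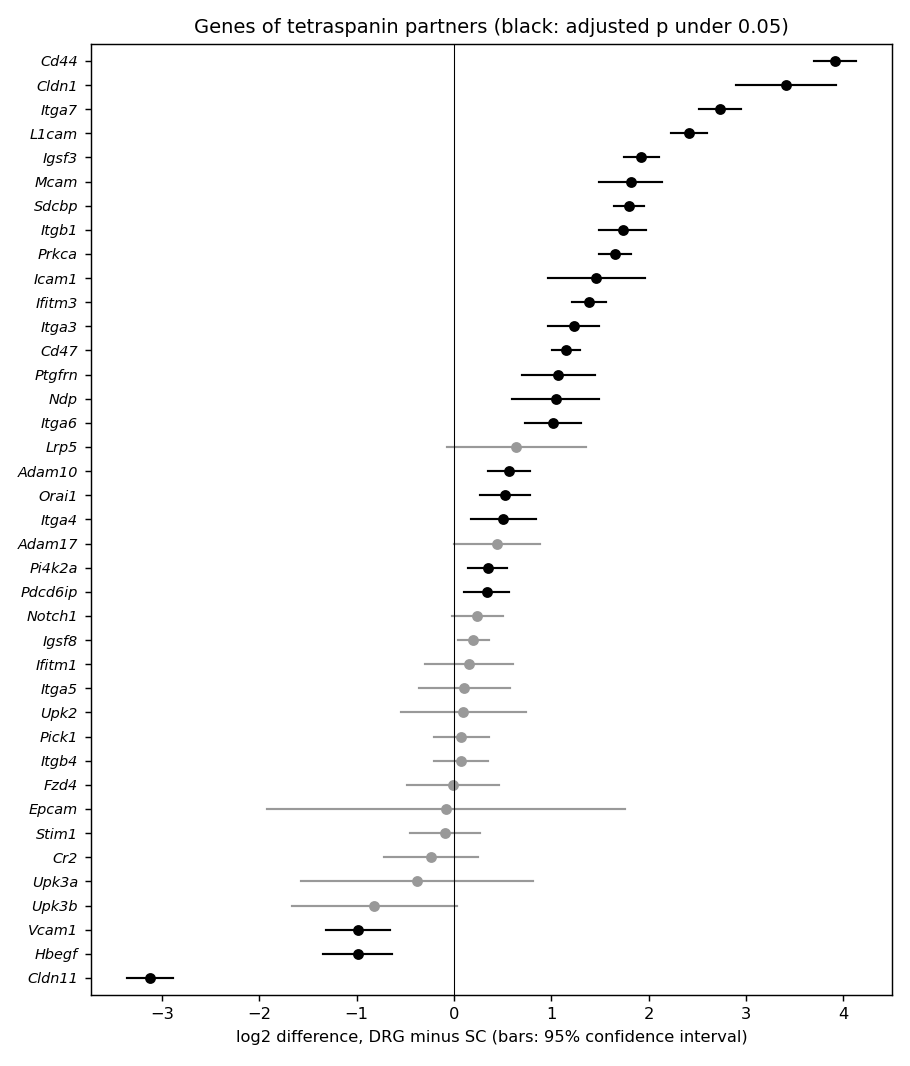
Log2 difference (DRG minus SC, deposited scaling) of the 39 partner genes measured, 1 gene a line, with 95% confidence intervals (black where called, grey where not). Most called genes lie to the right, led by Cd44 at 3.91, and 3 lie to the left, with Cldn11 at −3.12.

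Cell type markers moved with the same contrast. All 9 markers of sensory neurons were called higher in DRG (median 5.98), where their summed signal ran from 36584 to 37656 against 684 to 839 in SC, with Pirt, P2rx3 and Scn10a under the level in SC. Of 7 markers of Schwann cells and satellite glia, 6 were called higher in DRG (summed signal 14968 to 16145 against 2326 to 2635). Ngfr, Egr2 and Pmp2 were under the level in SC. The remaining marker, Sox10, differed by −0.0018. It was called higher in SC with quantile normalization (−0.52, adjusted p = 0.00242) and before the array scaling (−0.37, adjusted p = 0.0131). Of 7 markers of fibroblasts and matrix, 5 were called higher in DRG (14580 to 15945 against 2802 to 3043), with Lum under the level in SC.

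In SC, all 9 oligodendrocyte markers (1972 to 2105 in DRG against 16508 to 17906) and all 8 astrocyte markers (1156 to 1215 against 21958 to 24224) were called higher. Of 8 spinal neuron markers, 7 were called higher in SC (345 to 362 against 12060 to 12764). Olig2, Gfap and Gad1 were under the level in DRG. These lists bear on the members that were higher in DRG, such as Cd9, Cd151 and Tspan17, and on those that were higher in SC, such as Cd81 and Tspan2, and their part in those differences was not tested.

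Markers of blood, immune and endothelial cells were read as well. All 6 lymphocyte markers were under the level in both tissues (summed signal 251 to 362 in DRG and 222 to 305 in SC) and none was called, as for Cd37 and Cd53. Of 13 markers of microglia and macrophages, 8 were called towards SC and 2 towards DRG (2655 to 2840 in DRG against 4091 to 4363 in SC), with Ptprc under the level in both. Of 6 markers of platelets and red cells, 2 were called higher in DRG (672 to 774 against 361 to 478), Pf4 and Alas2, the latter under the level in both tissues. Of 7 endothelial markers, 1 was called towards DRG and 3 towards SC (991 to 1157 against 1544 to 1761). The part of these cells in the differences of Cd9, Tspan9, Tspan18 and Tspan33 was not tested.

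Markers of tissue that could come with the dissection were also read. All 3 adipocyte markers measured were called higher in DRG (721 to 973 against 161 to 379), with Adipoq under the level in both tissues. Of 6 skeletal muscle markers, 1 was called higher in SC (432 to 1332 in DRG and 423 to 1661 in SC, with wide overlap), and of 5 markers of cartilage and bone, 1 was called higher in SC (156 to 234 against 244 to 376). Their part was not tested.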

How the data were processed

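Gene expression was measured on 6 arrays, 3 of DRG and 3 of SC. The deposited values are linear ratios, made by the authors from MAS5 signals, per the submitters' processing notes and the values themselves; no source used here gives the later steps, the build or versions. Each ratio was read as a signal divided by an array factor (84.5 to 89.5 in DRG, 110.5 to 112.6 in SC) and by the probe set's median. Signals were recovered from the steps of 0.1 in which MAS5 writes them, for 45092 of 45101 probe sets. Of 10000 simulated probe sets, 98.3% were recovered exactly and 1.68% up to a common whole factor, which shifts a level but hardly a difference. Ratios of 0.01, the floor, are upper bounds. The tests had been planned for signals, and the recovered signals were used.

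Probe sets that name a single gene (34945, of which 34939 were tested; 932 name several and 9160 none, beside 64 controls) were named by the platform annotation, and 34741 matched RefSeq genes of GRCm38.p6 by Entrez identifier. The test was limma 3.58.1 (lmFit, eBayes with trend) in R 4.3.3 on log2(signal + 16), two-sided, with Benjamini-Hochberg adjustment at 0.05, and it was tested on simulated data. P-values measure the spread between pools. An exact permutation test of 3 against 3 cannot go below 0.1 and was not used.

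All tetraspanin genes are accounted for. Values on every array are given for those called with a log2 difference of at least 1. They are also given for those with probe sets called in opposite directions and those that turn between scalings. Partners called with a log2 difference of at least 1 were named, up to 6 in each direction, Igsf3 and Mcam by mean and SD alone. Members and lists were chosen with earlier results of these data known. Deviations of same-numbered arrays from their tissue means correlated at −0.0074, −0.031 and 0.0087, and those of other pairs at −0.0255 to 0.0344. Correlations this small do not show whether pools share mice, since noise between arrays could hide it. The pools were treated as unpaired. Array number limits the precision.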

Additional observations from a re-analysis of the deposited data

How the results depend on the processing

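The count of 16 called tetraspanin genes was within 1.5 times under every alternative run (pseudocounts, deposited ratios, scaling, filters, probe set rule, trend, replicate block), as were the counts of partners and of all probe sets. Without the probe sets ending in _x_at, _s_at or _a_at, 21 tetraspanin probe sets were called of 44 left, against 34 of 63. Both the number and the share called were lower. The same held over all probe sets, with 9443 called of 26988 left, against 13288 of 34939. With the replicate number as a block, 16 genes were called, 11 of them higher in DRG, and 12934 of all probe sets against 13288. Whether same-numbered pools share mice is not known, and the main test treated them as unpaired. Leaving out 1 array gave 16 to 17 genes, 32 to 35 tetraspanin probe sets, 22 to 25 partners and 11667 to 13007 of all probe sets. The split of all called probe sets was 9419 higher in DRG and 3869 in SC, 6276 and 5808 with quantile normalization, and 5593 and 7658 before the array scaling.

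Among the tetraspanins, the differences that changed sign were those of Tspan13 (−0.0049 with quantile normalization), Tspan3 (−0.44 with quantile normalization and −0.24 before the array scaling), Tspan1 (0.031 with the mean of its probe sets, and −0.33 to 0.089 when 1 array was left out, the highest without SC replicate 3) and Rom1 (−0.18 to 0.078 when 1 array was left out, above 0 without DRG replicate 1, and 0.075 without SC replicate 2). Tspan1 and Rom1 were not called under any of these. Tspan11 was called without SC replicate 2 (1.52, adjusted p = 0.00555) and with the mean of its probe sets (0.72, adjusted p = 0.0316), and Cd37 without DRG replicate 2 (1.12, adjusted p = 0.0203), both under the level of genes not expected. Tspan6 was called without DRG replicate 3 (−0.40, adjusted p = 0.0492), with the mean of its probe sets (−0.44), among probe sets above the median signal (−0.32) and under both other scalings. Cd53 was called before the array scaling (−0.76), on the deposited ratios (−0.49) and without the trend (−0.43). Partner differences near 0 turned too: with quantile normalization Pi4k2a went from 0.35 to −0.14 and Pdcd6ip from 0.34 to −0.16, both called before and not after, and Igsf8 from 0.20 to −0.35 (adjusted p = 0.00276). The cause of these changes was not tested. Signals under the level of genes not expected limit what can be said of 7 members.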
